A study of Mus musculus with 6 samples.

Results

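The carnitine shuttle carries long-chain fatty acids into mitochondria, where they are oxidised. The 6 genes described here are Slc22a5, Cpt1a, Slc25a20, Cpt2, Crot and Crat, chosen by name as its carriers and acyltransferases, out of 18193 genes measured. They are read by 14 of the 34945 probe sets that name a single gene. Where a gene has several probe sets, the one with the highest mean over the 6 arrays gives its main value, and the others are given beside it.

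Expression was measured in liver from male C57BL/6J mice aged 8 weeks, in 3 groups of 2 arrays. They are Cnot3+/- mice deprived of food for 24 h, wild-type mice deprived of food for 24 h, and wild-type mice fed normal chow. The Cnot3+/- mice carry the labelled loss of an allele of Cnot3, a subunit of the CCR4-NOT complex that shortens the poly(A) tails of mRNAs. No group joins Cnot3+/- with feeding, so genotype could be compared in the fasted state only.

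Fatty acids reach the liver from adipose tissue during a fast. Carnitine enters the cell through the transporter OCTN2, made from Slc22a5. At the mitochondrial outer membrane CPT1A, the rate-limiting enzyme of the pathway in liver, moves the acyl group from coenzyme A to carnitine. The carrier CACT, made from Slc25a20, exchanges acylcarnitine for free carnitine across the inner membrane, and CPT2 on its matrix side returns the acyl group to coenzyme A. Crot encodes a peroxisomal enzyme that links medium-chain acyl groups to carnitine, and Crat encodes carnitine acetyltransferase, which acts on acetyl and other short acyl groups. Malonyl-CoA, an intermediate of fatty acid synthesis, inhibits CPT1A, and the nuclear receptor PPARalpha is known to activate several of these genes in fasted liver.

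In fasted wild-type liver 5 of the 6 genes rose and none fell. The call is limma's test with Benjamini-Hochberg adjustment over all 18193 genes at an adjusted p under 0.05, which calls 1.87% of all genes higher and 3.15% lower. The median log2 difference over the 6 genes was 0.95, against 0.02 over all genes. Every fasted wild-type array lay above every fed array for 6 of 6 genes, a state found for 27.1% of all genes. The plasma membrane transporter Slc22a5 rose most and Cpt1a next, followed by Cpt2 and Crot at nearly the same size and then Slc25a20. Crat did not pass on its main probe set. Between the fasted genotypes none of the 6 genes passed.

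**Figure D1:**
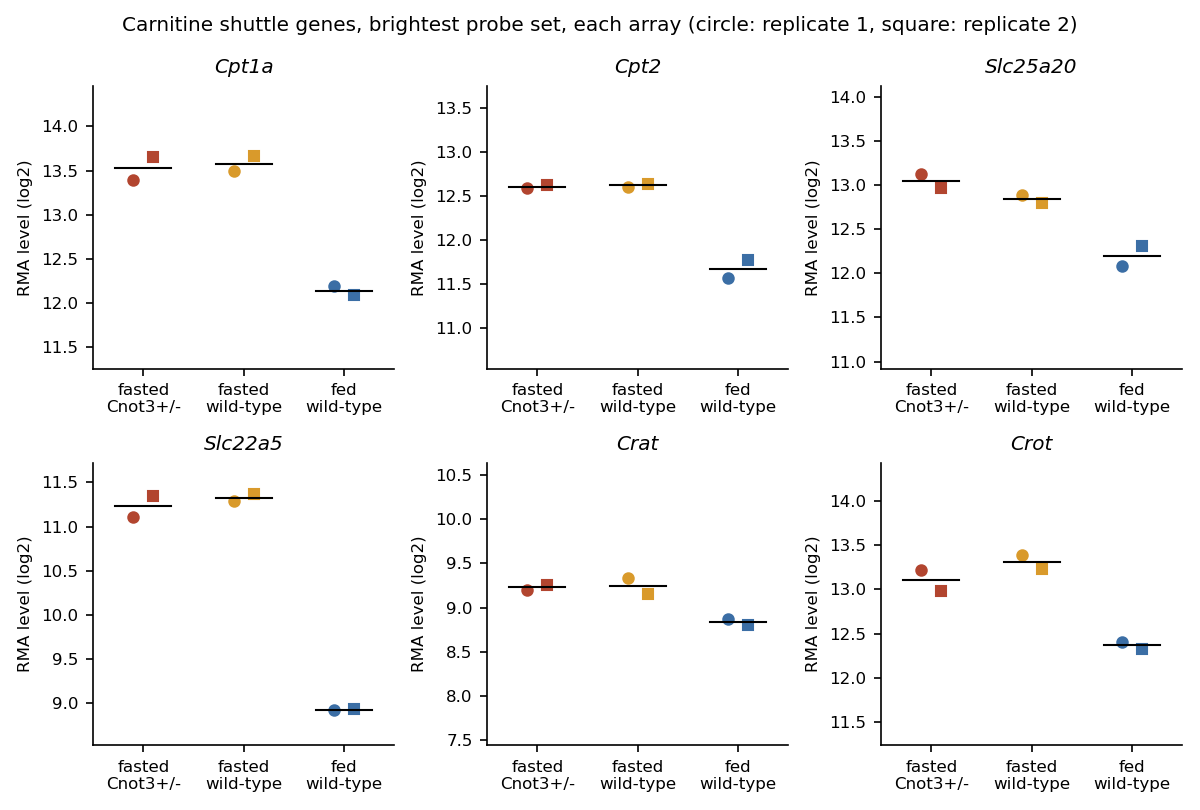
RMA level (log2) of each carnitine shuttle gene on its brightest probe set, by group (fasted Cnot3+/-, fasted wild-type, fed wild-type). Each point is 1 array, circles for replicate 1 and squares for replicate 2, and bars are group means; every panel spans the same log2 range. The fed arrays lie lowest for all 6 genes, by the widest margin for Slc22a5, while the fasted genotypes lie close together.

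In the fasting comparison, Slc22a5 and Cpt1a were the members that stayed past the test under every alternative tried, so their promoters are shown. The promoters come from RefSeq windows on GRCm38.p6 that held 5 of the 6 genes. The 250 bases before the transcript start that each window is set on follow, 5′ to 3′ on the strand of the gene. The annotated gene begins further upstream than this start for both, at 3322326 for Cpt1a and, on the minus strand, at 53891796 for Slc22a5, so the Cpt1a stretch lies inside the annotated gene and the Slc22a5 stretch overlaps it. Capitals mark matches, on either strand, to AGGTCA (the half-site of nuclear receptors), to CCAAT (the box bound by NF-Y) and to GGGCGG (the box bound by SP1 family factors). No TATAAA was found.
Slc22a5 promoter (chr11:53891704-53891953, minus strand): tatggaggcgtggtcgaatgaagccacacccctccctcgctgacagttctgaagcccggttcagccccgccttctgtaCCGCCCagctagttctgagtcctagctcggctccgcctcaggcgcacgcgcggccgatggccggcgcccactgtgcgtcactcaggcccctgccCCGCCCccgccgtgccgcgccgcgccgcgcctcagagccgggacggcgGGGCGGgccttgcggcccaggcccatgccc
Cpt1a promoter (chr19:3323051-3323300, plus strand): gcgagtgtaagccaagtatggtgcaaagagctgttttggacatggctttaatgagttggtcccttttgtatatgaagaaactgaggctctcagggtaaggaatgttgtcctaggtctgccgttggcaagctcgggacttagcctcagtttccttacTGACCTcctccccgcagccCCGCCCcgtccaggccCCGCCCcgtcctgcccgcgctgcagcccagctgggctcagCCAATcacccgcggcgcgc

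The promoter windows shared GC boxes. Windows of 300 bases, from 250 before to 50 after a start, held GGGCGG in 5 of 5 genes, against 35.7% of all 32851 windows. CCAAT lay in 2 of them, Cpt1a and Crot, against 37.4% of all windows, and TATAAA in 0, against 13.6%. A half-site AGGTCA lay in Cpt1a, at position -94 from that start and on the opposite strand, against 16.3% of all windows. PPARalpha with its partner RXR binds direct repeats of this half-site spaced by a single base of any kind. Searched on both strands and allowing 2 mismatches outside the spacer, Slc25a20 held such a match and the other members with a window held none, against 3.86% of all windows. The Slc25a20 match is shown in capitals in a window of 30 bases, and its first base is position 7 counted from 1 at the start of the gene.
Slc25a20 repeat (chr9:108662134-108662163, plus strand): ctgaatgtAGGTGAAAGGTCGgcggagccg
These matches describe letters only, and no binding was measured here.

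Slc22a5, which brings carnitine into the cell, read 11.28 and 11.37 (log2 level) on the fasted wild-type arrays, against 8.92 and 8.93 on the fed arrays. Both fasted arrays lay more than 2-fold above both fed arrays, and replicates were close together in each group. The gene rose 5.28-fold (log2 difference 2.40, SE 0.13, 95% confidence interval 2.10 to 2.70, limma adjusted p = 0.000584). It held place 16 by size among the 340 genes called higher. Its second probe set, at a mean level of 9.13, read 10.03 and 10.24 on the fasted wild-type arrays, against 7.73 and 7.64 on the fed arrays. That is a log2 difference of 2.45 (SE 0.21, adjusted p = 0.00647 in a fit over all 34945 probe sets), so both probe sets gave a rise of the same size.

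Cpt1a read 13.49 and 13.67 on the fasted wild-type arrays, against 12.19 and 12.09 on the fed arrays. It rose 2.71-fold (log2 1.44, SE 0.14, interval 1.11 to 1.77, limma adjusted p = 0.00377). The interval for Slc22a5 lies wholly above that for Cpt1a. The next probe set of Cpt1a read 12.22 and 11.71, against 10.66 and 10.63, and the dimmest read 10.13 and 9.58, against 8.30 and 8.66, each time fasted wild-type against fed. Their log2 differences were 1.32 (limma adjusted p = 0.0464 over all probe sets) and 1.37 (adjusted p = 0.0545). Identifiers of both end in _x_at, which marks probes that may also match other transcripts. All 3 probe sets thus gave a difference of similar size, and they differed in their spread.

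The wider spread of both dimmer Cpt1a probe sets followed the replicate number among fasted arrays. On the middle probe set the arrays numbered 1 read 12.26 (Cnot3+/-) and 12.22 (wild-type), against 11.64 and 11.71 on those numbered 2. On the dimmest they read 10.15 and 10.13, against 9.51 and 9.58. The brightest probe set ran the other way, at 13.40 and 13.49 on the arrays numbered 1 and 13.66 and 13.67 on those numbered 2. Control transcripts with 3′ and 5′ probe sets report how evenly a transcript was copied. Among 4 such controls, Pcx differed most between replicates within each fasted group. Its 3′ level exceeded its 5′ level by 4.12 (Cnot3+/-) and 2.67 (wild-type) on the fasted arrays numbered 1, and by 2.81 and 1.87 on those numbered 2. On the fed arrays it was 3.29 and 3.25. There the middle Cpt1a probe set showed no such split, and the dimmest read 8.30 and 8.66, the other way round from the fasted arrays. Pcx did not order the arrays as Cpt1a did, since Cnot3+/- replicate 2 exceeded wild-type replicate 1. The gap of Tfrc was 2.12 and 2.08 on the Cnot3+/- arrays, against 1.98 and 1.74 on the fasted wild-type arrays. On the fed arrays the Tfrc gap was 2.24 and 2.10, so it did not set the Cnot3+/- arrays apart. Actb and Gapdh set Cnot3+/- replicate 1 apart, at 1.06 and 0.31, against at most 0.62 and 0.06 on the other 5 arrays. The part of this in the Cpt1a values was not tested.

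Slc25a20, the inner membrane carrier, read 12.89 and 12.80 on the fasted wild-type arrays, against 12.08 and 12.31 on the fed arrays. The fed replicates lay further apart than the fasted ones, but the groups did not overlap. The gene rose 1.57-fold (log2 0.65, SE 0.13, interval 0.33 to 0.97, limma adjusted p = 0.0409). Its second probe set read 11.69 and 11.70, against 10.81 and 10.96, fasted wild-type against fed. The log2 difference of that set was 0.81 (SE 0.12, adjusted p = 0.0250 over all probe sets), where the brighter set gave an adjusted p = 0.0633.

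Cpt2, which completes the transfer in the matrix, read 12.61 and 12.63 on the fasted wild-type arrays, against 11.57 and 11.78 on the fed arrays. It rose 1.93-fold (log2 0.95, SE 0.12, interval 0.66 to 1.24, limma adjusted p = 0.00918). Its other probe set had a mean level of 4.80 against array medians of 5.59 to 5.64, so a signal above background was not shown for it. It differed by 0.26 (adjusted p = 0.626).

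Crot, the peroxisomal octanoyltransferase, read 13.39 and 13.24 on the fasted wild-type arrays, against 12.40 and 12.33 on the fed arrays. It rose 1.93-fold (log2 0.95, SE 0.13, interval 0.63 to 1.26, limma adjusted p = 0.0119). Cpt2 and Crot thus shared a fold change to within their errors, one acting in mitochondria and the other in peroxisomes. The second Crot probe set lay near the array medians, at a mean of 5.83, and differed by -0.17 (adjusted p = 0.738).

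Crat, the acetyltransferase, gave different answers on its 3 probe sets. The brightest read 9.34 and 9.16 on the fasted wild-type arrays, against 8.87 and 8.81 on the fed arrays. Its groups did not overlap, but the log2 difference of 0.41 (SE 0.12, interval 0.12 to 0.69, limma adjusted p = 0.120) did not pass. The second probe set was dimmer by 0.01 in its mean level. It read 9.59 and 9.75 on the fasted wild-type arrays, against 7.68 and 8.10 on the fed arrays, a 3.44-fold rise (log2 1.78, SE 0.17, interval 1.37 to 2.19, adjusted p = 0.00807 over all probe sets). The dimmest Crat set, at a mean of 6.50, differed by 0.53 (adjusted p = 0.0893). The intervals of the first and second probe sets do not overlap. The brightest set has an identifier ending in _x_at as well, and without probe sets marked _x_at or _s_at all 6 members rose.

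**Figure D2:**
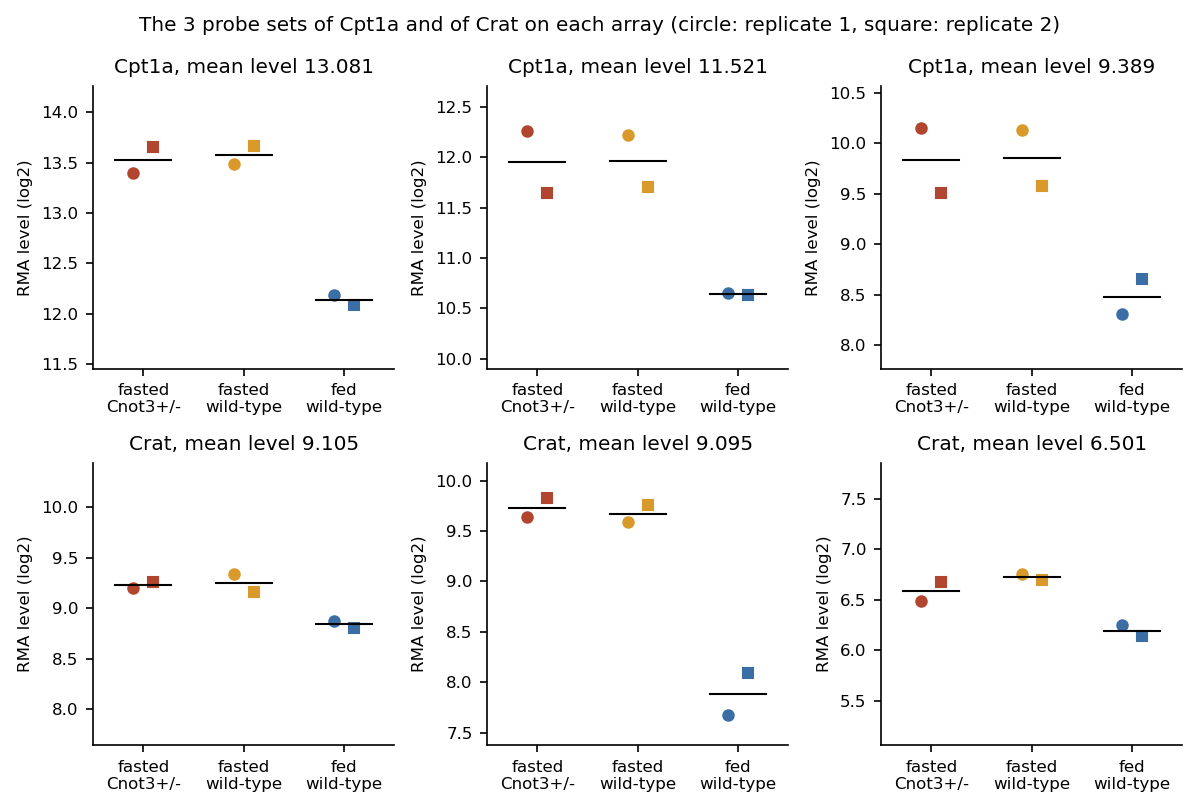
RMA level (log2) of the 3 probe sets of Cpt1a (top) and of Crat (bottom), from brightest to dimmest, by group. Points are arrays (circle: replicate 1, square: replicate 2) and bars are group means; panels span the same log2 range. The middle Crat panel shows the wide gap between fasted and fed arrays, 1.78 against 0.41 in the panel at its left, and the 2 dimmer Cpt1a panels show fasted arrays split by replicate number.

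By probe set, 8 of the 14 rose in fasted wild-type liver and 0 fell, where 0.97% of all single-gene probe sets rose. The 6 that did not pass were the dimmest Cpt1a set, the dim Cpt2 and Crot sets, the brighter Slc25a20 set, and the brightest and dimmest Crat sets. Differences were positive for 13 of the 14, and the exception was the dim Crot set.

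**Figure D3:**
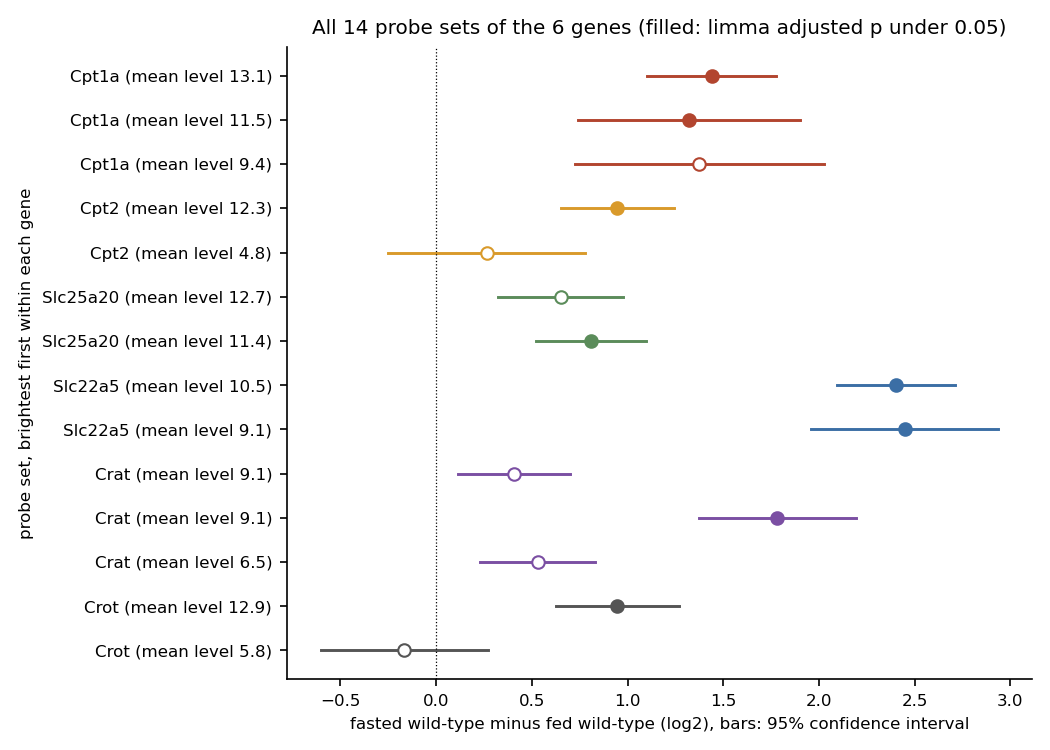
Log2 difference, fasted wild-type minus fed wild-type, for each of the 14 probe sets, with 95% confidence intervals; rows are ordered by gene and by mean level, and filled points have a limma adjusted p under 0.05 over all probe sets. Both Slc22a5 sets lie near 2.4, the 3 Cpt1a sets between 1.32 and 1.44, and the 3 Crat sets from 0.41 to 1.78.

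The number of members called depended on single arrays. Every difference kept its sign, which is no further support, since groups that do not overlap keep their order when 1 array is left out. Slc22a5 and Cpt1a passed with any 1 array left out. Without fasted wild-type replicate 1 or replicate 2 they were the only 2 members called. Cpt2 was called beside them without fed replicate 2, and Cpt2 and Crot without fed replicate 1. The adjusted p of Slc25a20 was then 0.165 (without fed replicate 1) and 0.0866 (without fed replicate 2). With the mean over the probe sets of a gene, Cpt2 (log2 0.61, adjusted p = 0.0766) and Crot (0.39, adjusted p = 0.113) no longer passed and Crat did (0.91, adjusted p = 0.00719).

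The second comparison asks whether the loss of a Cnot3 allele changes the shuttle in fasted liver. None of the 6 genes passed, limma calling 0 of 18193 genes (0%), and 0 of the 6 had an unadjusted p under 0.05, against 5.56% of all genes. The limma adjusted p ran from 0.868 to 0.993. The groups lay apart for 2 of 6 genes, against 36% of all genes. Cnot3 itself read 9.40 and 9.16 on the Cnot3+/- arrays, against 9.27 and 9.32 for fasted wild-type. Since the extent of the deletion is not given in the labels, these levels do not check the genotype.

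Slc22a5 read 11.11 and 11.35 on the Cnot3+/- arrays, against 11.28 and 11.37 on the fasted wild-type arrays. The log2 difference of -0.10 (SE 0.13) had a 95% interval of 0.759 to 1.15 as a fold. Its second probe set was lower on both Cnot3+/- arrays, at 9.27 and 9.87 against 10.03 and 10.24, and gave the largest genotype difference among the 14 probe sets, -0.56 (SE 0.21). That difference had an unadjusted p of 0.0295 and an adjusted p of 0.814, and the brighter probe set did not share its size. The other probe sets ran from -0.21 to 0.20.

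Cpt1a read 13.40 and 13.66 on the Cnot3+/- arrays, against 13.49 and 13.67 on the fasted wild-type arrays (log2 difference -0.05, fold interval 0.769 to 1.21). Cpt2 read 12.59 and 12.62, against 12.61 and 12.63 (-0.02, fold interval 0.808 to 1.21). Crat read 9.20 and 9.26, against 9.34 and 9.16 (-0.02, log2 interval -0.30 to 0.27). The arrays of these 3 genes overlapped between genotypes. The intervals leave room for differences in either direction, so they do not show that the levels were equal.

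Slc25a20 and Crot were the 2 genes whose fasted arrays did not overlap. Slc25a20 read 13.13 and 12.96 on the Cnot3+/- arrays, against 12.89 and 12.80 on the fasted wild-type arrays (log2 difference 0.20, SE 0.13, adjusted p = 0.868). Its second probe set had the opposite sign, at 11.53 and 11.62 against 11.69 and 11.70 (-0.12). Crot read 13.22 and 12.98 on the Cnot3+/- arrays, against 13.39 and 13.24 (-0.21, SE 0.13, interval -0.52 to 0.11, adjusted p = 0.868).

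**Figure D4:**
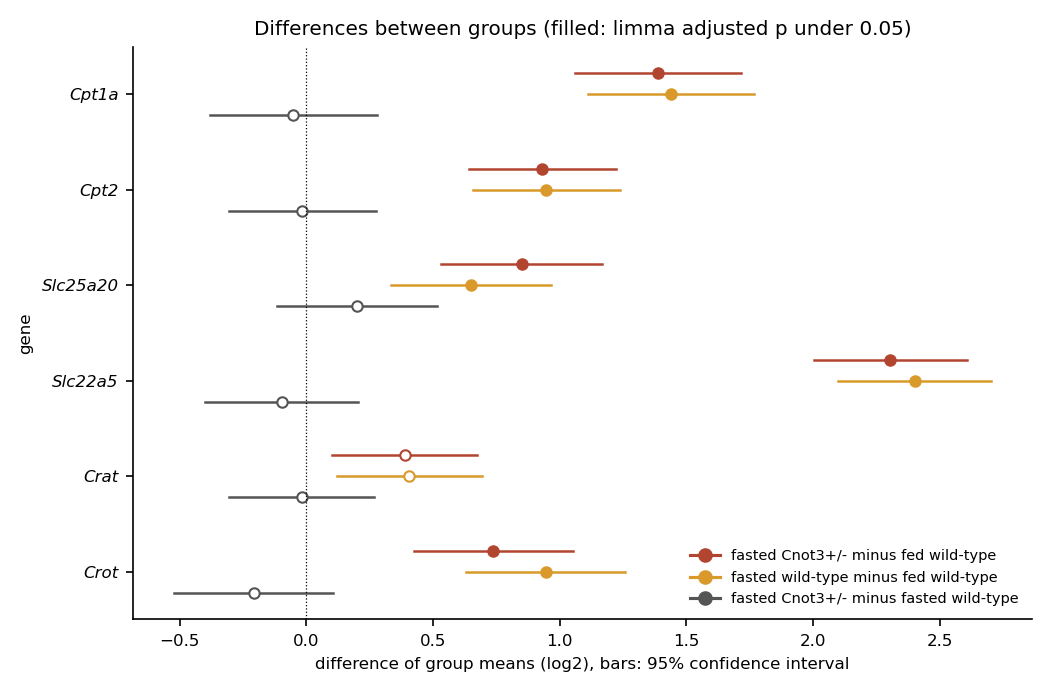
Log2 differences between groups for each member on its brightest probe set, with 95% confidence intervals; filled points have a limma adjusted p under 0.05. Fasted Cnot3+/- minus fed and fasted wild-type minus fed share the fed arrays; all intervals of fasted Cnot3+/- minus fasted wild-type include 0.

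Fasted Cnot3+/- liver set against fed wild-type liver also had 5 of 6 members higher and none lower, where 3.88% of all genes were called higher and 3.68% lower. This comparison shares the fed arrays with the fasting comparison, so it is not a second test of the fast. Slc22a5 differed by 2.30 (limma adjusted p = 0.000524), against 2.40 in fasted wild-type liver, and Cpt1a by 1.39 (adjusted p = 0.00288), against 1.44. Cpt2 differed by 0.93 (adjusted p = 0.00712), against 0.95, and Slc25a20 by 0.85 (adjusted p = 0.0130), against 0.65. Crot differed by 0.74 (adjusted p = 0.0209), against 0.95, and Crat by 0.39 (adjusted p = 0.114), against 0.41. On its second probe set Crat differed by 1.84, with 9.63 and 9.82 on the Cnot3+/- arrays against 7.68 and 8.10 on the fed arrays. Over the 14 probe sets 10 rose in this comparison, against 2.09% of all single-gene probe sets. Fed levels were the lowest of the 3 groups for each member, and the order of the fasted genotypes above them was not settled by the test. Without fed replicate 1 or Cnot3+/- replicate 1, 3 members were called in this comparison, Cpt1a, Cpt2 and Slc22a5.

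Over the 6 arrays the members shared the gap between fed and fasted liver. Pearson correlations between main probe sets ran from 0.883 (Slc25a20 with Crot) to 0.996 (Cpt1a with Slc22a5). They describe 6 arrays in 3 groups and restate that gap. Within the fasted groups the members did not move as one. From replicate 1 to replicate 2 Cpt1a changed by 0.18 (wild-type) and 0.26 (Cnot3+/-). Slc25a20 changed by -0.09 and -0.17, and Crot by -0.15 and -0.24. The 4 genes nearest to Cpt1a in centred log2 level, among 9090 brighter than the median gene, were Mycl, Pspc1, Acot12 and Cyp2c39. The transcription factor gene Mycl lay nearest, with a root mean square difference of 0.09 over the 6 arrays (r = 0.994). Acot12, a cytosolic acetyl-CoA thioesterase, lay at 0.13. The nearest other member was Cpt2, at 0.25. For Slc22a5 the nearest were Cyp8b1, Slc27a1, Pla2g7 and Krt23. Cyp8b1, the sterol 12-alpha-hydroxylase of bile acid synthesis, lay at 0.12 (r = 0.996), and Slc27a1, a fatty acid transport protein, at 0.18. Cyp2c39 belongs to a family of close copies, and its probe set may read other members.

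The body also makes carnitine, in part in liver. None of the 3 measured carnitine synthesis genes passed in the fasting comparison, and their median log2 difference was -0.02. Bbox1, which catalyses the last step, read 12.25 and 12.50 on the fasted wild-type arrays, against 12.24 and 12.19 on the fed arrays (log2 difference 0.16, limma adjusted p = 0.668). Aldh9a1, which acts just before it, differed by -0.02 (adjusted p = 0.971). Tmlhe, which starts the pathway, read 7.11 and 7.76 in fasted Cnot3+/- liver, 8.07 and 8.55 in fasted wild-type liver and 8.77 and 8.59 in fed liver. Its level on Cnot3+/- arrays was under that of both other groups. It fell by 1.25 in fasted Cnot3+/- against fed liver (SE 0.24, adjusted p = 0.0263), while the difference of -0.87 between fasted genotypes did not pass (adjusted p = 0.863). The adjusted p of that fall reached 0.114 with single arrays left out, and the call was lost without either fed replicate or Cnot3+/- replicate 1.

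Further transporters and the other isoforms of CPT1 were also read. Of 9 genes for further transporters of carnitine or related molecules, 1 rose and 0 fell, with a median of -0.16. For this list and those below, the background over all genes was 1.87% higher and 3.15% lower, with a median of 0.02. The gene that rose was Slc25a47, a mitochondrial carrier of liver, at 14.11 and 14.38 on the fasted wild-type arrays, against 13.35 and 12.72 on the fed arrays (log2 1.21, SE 0.23, limma adjusted p = 0.0316). Slc22a21, a close relative of Slc22a5, had levels of 4.08 to 4.46 on all 6 arrays, under the array medians. Slc25a45 and Slc25a48 differed by -0.73 (adjusted p = 0.315) and -0.21 (adjusted p = 0.547). Cpt1c, the CPT1 isoform of brain, lay under the array medians on all 6 arrays, and Cpt1b, the muscle isoform, was not analysed here because its probe set names several genes.

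Genes that set the malonyl-CoA brake on CPT1A moved both ways: 3 of 7 fell and 1 rose in fasted wild-type liver, with a median of -0.70. Acaca, the carboxylase that makes malonyl-CoA in the cytosol, read 8.86 and 9.12 on the fasted wild-type arrays, against 10.75 and 10.69 on the fed arrays (log2 -1.73, SE 0.18, limma adjusted p = 0.00448). Mlycd, the decarboxylase that removes malonyl-CoA, rose by 0.61 (SE 0.13, adjusted p = 0.0492), a call that was lost with any 1 array left out. The catalytic AMPK subunits, which phosphorylate and inhibit the carboxylases, fell: Prkaa2 by 0.87 (adjusted p = 0.0125) and Prkaa1 by 0.70 (adjusted p = 0.0352). The fasted level of Prkaa1 was near the array medians.

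Long-chain acyl-CoA synthesis genes make the substrate of CPT1A. After the fast 1 of 6 was lower and 0 higher, with a median of -0.12, against 3.15% of all genes called lower. Acsl4, a synthetase that prefers arachidonic acid, fell by 0.69 (SE 0.13, limma adjusted p = 0.0292). Acsl3, a lipid droplet synthetase, read 6.83 and 8.32 on the fasted wild-type arrays, against 9.70 and 9.45 on the fed arrays, and its difference did not pass (log2 interval -3.06 to -0.95, adjusted p = 0.0521). Acsl5 and the very long-chain synthetase Slc27a2 differed by -0.29 (adjusted p = 0.246) and 0.49 (adjusted p = 0.0698). The main liver synthetase gene Acsl1 was not analysed here.

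Of 12 genes for regulators of the shuttle, 1 rose and 1 fell in fasted wild-type liver, with a median of 0.09. Among all genes 1.87% rose and 3.15% fell, with a median of 0.02. Creb3l3, a liver transcription factor of fasting, rose by 0.96 (SE 0.13, limma adjusted p = 0.0114), and Foxa2, a hepatocyte factor restrained by insulin, fell by 0.89 (SE 0.18, adjusted p = 0.0370). Ppara, the nuclear receptor itself, read 12.64 and 12.41 on the fasted wild-type arrays, against 11.94 and 12.05 on the fed arrays. Its groups did not overlap, but the difference of 0.53 did not pass (adjusted p = 0.0681). Ppargc1a, a coactivator of PPARalpha, read 9.28 and 9.32 in fasted Cnot3+/- liver, 7.64 and 8.81 in fasted wild-type liver and 8.27 and 6.70 in fed liver. It was highest on the Cnot3+/- arrays, and neither the difference of 1.07 between fasted genotypes (adjusted p = 0.863) nor that of 0.74 on fasting (adjusted p = 0.528) passed.

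The enzymes downstream of the shuttle rose with it in part. Of 17 mitochondrial beta oxidation genes 7 rose and 0 fell in fasted wild-type liver, with a median of 0.51. Etfdh, which passes electrons from the acyl-CoA dehydrogenases to ubiquinone, rose by 0.95 (SE 0.14, limma adjusted p = 0.0136). Hadhb, a subunit of the trifunctional protein, rose by 0.86 (adjusted p = 0.0200), the dehydrogenase Acad11 by 0.78 (adjusted p = 0.0143) and the medium-chain dehydrogenase Acadm by 0.74 (adjusted p = 0.0195). Of 16 peroxisomal oxidation genes, 4 rose and 1 fell, with a median of 0.40. The bifunctional enzyme Ehhadh rose by 1.26 (adjusted p = 0.00628), the thioesterase Acot8 by 0.90 (adjusted p = 0.0114) and the dienoyl-CoA reductase Decr2 by 0.72 (adjusted p = 0.0219). Nudt7, a peroxisomal hydrolase of coenzyme A, fell by 1.49 (SE 0.16, adjusted p = 0.00482). With single arrays left out, the genes called higher numbered 0 to 7 of the mitochondrial list and 0 to 5 of the peroxisomal list. The fall of Nudt7 passed with any 1 array left out, and that of Acaca was lost without fasted wild-type replicate 1 alone (adjusted p = 0.0501). The other genes named here from the lists as changed by fasting lost their call without fasted wild-type replicate 1 and without replicate 2. Of these, Mlycd, Prkaa1, Acsl4, Foxa2, Acadm, Hadhb, Acad11 and Decr2 also lost it without either fed replicate, and Slc25a47, Prkaa2, Etfdh, Creb3l3 and Acot8 without 1 of them. None of the measured genes on the 8 lists passed between the fasted genotypes.

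**Figure D5:**
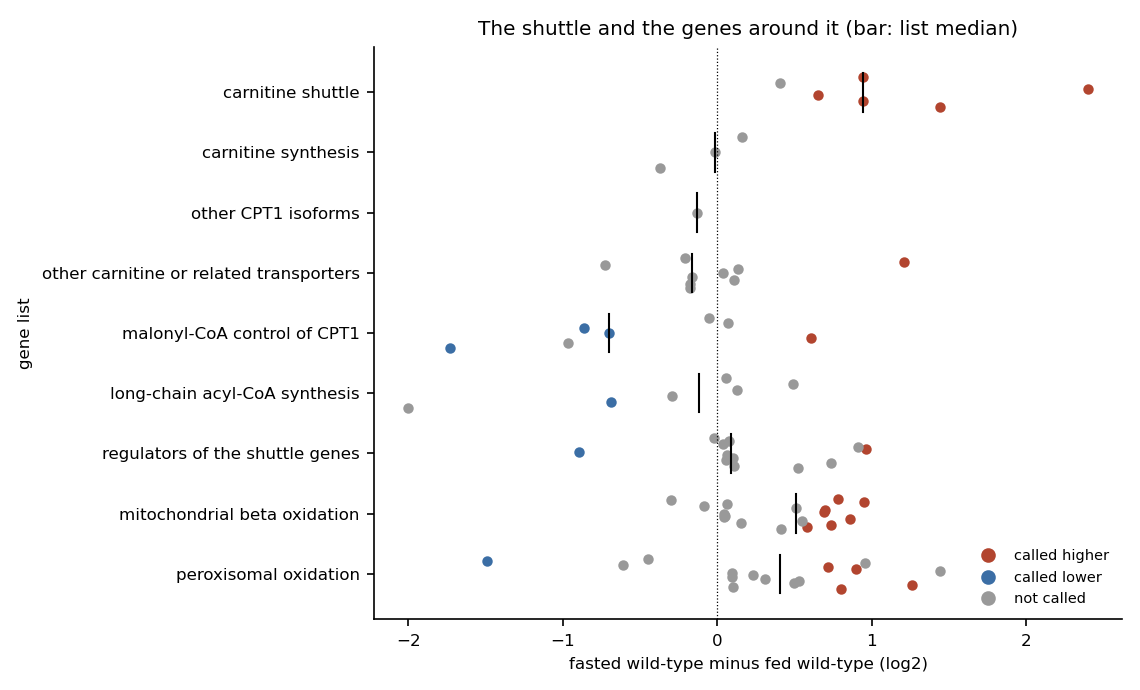
Log2 difference, fasted wild-type minus fed wild-type, for every measured gene of the shuttle and of 8 gene lists around it. Points are genes, coloured by limma's call at an adjusted p under 0.05, and bars are list medians: 0.95 for the shuttle, 0.51 for mitochondrial and 0.40 for peroxisomal oxidation, -0.02 for carnitine synthesis and -0.70 for the malonyl-CoA list.

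The samples carried the markers of liver. All 7 measured hepatocyte markers were brighter than the median gene, with mean levels of 14.64 and 14.65 in fasted Cnot3+/- liver, 14.75 and 14.61 in fasted wild-type liver and 14.54 and 14.44 in fed liver. Of the measured markers of skeletal muscle, kidney tubule, adipocytes and cholangiocytes, 0 were brighter than the median gene. Mean levels above the lower cut of the array medians were found for 2 of 6, 1 of 6, 1 of 4 and 3 of 5 of them. Kupffer cell markers, 6 of 6 of them brighter than the median gene, averaged 9.90 and 9.36 in fasted Cnot3+/- liver, 9.01 and 9.08 in fasted wild-type liver and 8.43 and 8.56 in fed liver. Their median difference was 0.46 between fasted wild-type and fed liver and 0.48 between the fasted genotypes. No Kupffer marker was called in either. Between fasted Cnot3+/- and fed liver their median difference was 0.94. There 4 of 6 were called higher (C1qa, C1qb, Cd163 and Marco), against 3.88% of all genes. Endothelial markers averaged 8.39 and 8.78 in fasted Cnot3+/- liver, 8.82 and 8.80 in fasted wild-type liver, then 8.38 and 8.31 when fed. On fasting 1 of 6 was called, Lyve1 (log2 difference 1.58, limma adjusted p = 0.00456), against 1.87% of all genes called higher.

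Stellate cell markers did not move as one. Col3a1 and Col1a1 fell by 2.32 and 0.65 on fasting, and Lrat, at 7.50 and 7.38 on the fasted wild-type arrays against 8.74 and 8.55 on the fed arrays, fell too (limma adjusted p = 0.00497). Dcn rose by 0.61 (limma adjusted p = 0.0497), and Des and Reln differed by 0.08 and -0.10 without passing. Col1a1 lay under the array medians on all 6 arrays. Of the exocrine pancreas list Cela1 fell by 1.45 (adjusted p = 0.00308). The other measured genes of that list, Cpa1 and Cel, had means under the array medians and differed by -0.13 and -0.05. Of the erythroid list Alas2, at a mean of 9.79, differed by -0.82 (adjusted p = 0.0637). The other measured erythroid genes had means under the array medians. They were Slc4a1, Hba-a1 and Epb42, which differed by 0.22, 0.09 and -0.03, and the median of the list was 0.03. These marker genes were named after their values were seen. The part of any of these lists in the shuttle differences was not tested. In whole liver, fewer cells of a type and less RNA per cell cannot be told apart.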

How the data were processed

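Liver RNA from 6 mice was hybridised to Affymetrix arrays, with biotinylated cRNA made from 10 ug of total RNA, per the labels' protocols. Values were deposited on a log2 scale after RMA, a tool that the submitters' processing notes list without a version, and were used unchanged. Of 45101 probe sets, 34945 name 1 gene and are not controls, 932 name several genes, and the other 9224 are unnamed or set aside as controls (64 control probe sets in all). Symbols were updated by gene ID to GRCm38.p6, with 18032 of 18193 genes matched.

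All genes were fitted in limma 3.58.1 (R 4.3.3) with 3 group means over 6 arrays (residual df 3, prior df 4.24), with SEs moderated. A second fit took all 34945 probe sets. The labels call the arrays biological replicates, and having only 2 in each group limits precision. The members, lists and alternatives were chosen with earlier results of these data known. All 6 members are named, with the 4 genes of each list smallest in fasting p, the 4 genes nearest to Cpt1a and to the member of widest range. Same-number deviations correlated at 0.45 between the fasted groups, and at 0.04 and -0.01 with the fed group. Fasted arrays thus shared variation by replicate number, and its source was not tested. The main fit left the replicate number out, and an alternative added it as a block. On simulated data for the fasting comparison (18193 genes), limma called 72 of 100 genes changed by 1 on the log2 scale and 98 of 100 changed by 2, with 10 false calls. The simulated noise was independent between genes and arrays and followed limma's own variance model. Variation shared by arrays was not in it. The simulation changed 100 genes at each size, where the fasting fit called 913, so these rates need not hold for the data. Alternatives covered normalisation, choice of probe set, dim genes, variance model, samples and replicate number. Figures used matplotlib 3.10.9 on Python 3.11.15.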

Additional observations from a re-analysis of the deposited data

How the results depend on the processing

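With 1 array left out in turn, the number of members called ran from 2 to 5 for fasting and 3 to 5 for fasted Cnot3+/- against fed. The number of genes called ran from 137 to 1033 for fasting and from 597 to 929 for fasted Cnot3+/- against fed. Between fasted genotypes it ran from 0 to 2: Sult1e1 was called without Cnot3+/- replicate 1, and Fst and Moxd1 without replicate 2. With the 4 arrays compared alone, 857 genes were called for fasted Cnot3+/- against fed, against 1375, and 5 members in both. The replicate block called 5 members and 1206 genes for fasting (913 without it), 5 members and 1708 genes for fasted Cnot3+/- against fed, and 0 of either between genotypes; it changed no call of a member. Genotype differences of some members turned positive. Cpt2 gave 0.0647 with the mean over probe sets, and Crat 0.0587 without _x_at and _s_at probe sets. Leaving out 1 array, the genotype difference ran from -0.180 to 0.0774 for Cpt1a, -0.0327 to 0.000301 for Cpt2, -0.107 to 0.0705 for Crat and -0.216 to 0.0218 for Slc22a5, and none passed. For the members with separated groups it ran from 0.12 to 0.28 for Slc25a20 and -0.33 to -0.09 for Crot. Their sign could not change, since groups that do not overlap keep their order when 1 array is left out. The mean over probe sets gave -0.33 for Slc22a5, 0.04 for Slc25a20 and -0.004 for Crot. With 2 arrays a group and a lone array assumed to vary like the others, the cause of lost calls was not tested.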
